A study of Mus musculus with 38 samples.

Results

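Transcripts of 9 Tudor domain genes of the piRNA pathway, Tdrd1, Tdrd5, Tdrd6, Tdrd7, Tdrd9, Tdrd12, Tdrkh, Stk31 and Rnf17, were measured in mouse fetal gonocytes. They were found by their gene names in the deposited count tables, in which all 9 occur among 27633 genes of the Inhba tables and 8 among 9798 genes of the Inha table. Tdrd6 is the gene that the Inha table does not hold. The genes were picked by domain and pathway. No measured value enters that rule, though the choice was made with earlier results of these data known. Gonocytes are the germ cells of the fetal testis before birth, and they were isolated here by FACS for an Oct4-Gfp reporter that every animal carried.

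Inhba animals in the data numbered 15, with 3 WT and 4 KO at E13.5, and 4 of each genotype at E15.5. The paper left out a further WT gonocyte sample of E13.5 as an outlier in principal component analysis. It held that this sample may have been contaminated or swapped. The Inha line gave 4 animals at E13.5, in 2 pairs of a WT and a KO littermate. Both KO lines lack the gene in all cells. Inhba encodes the activin A subunit and Inha the inhibin α subunit, so that Inhba KO testes lack activin A and Inha KO testes lack inhibins, which oppose activin. All animals were of the C57/Bl6/129svJ background, and the paired testes of an embryo made a replicate. The genotype field of the sample records differs from the sample title for 5 Inhba animals, KO replicate 1 at E13.5 and all 4 WT replicates at E15.5. The titles were followed, and the column names of the count tables give the same genotypes. By the field no WT animal exists at E15.5, so the KO and WT comparison at that age could not be made from it. At E15.5 the labels of KO replicates 2 and 3 share the number that precedes the point, as do those of KO replicate 1 and WT replicate 2. In the Inha line such a shared number marks littermates, and these animals may therefore not be independent. Leaving out any of them changed no count of called genes.

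The Inhba libraries held 8466087 to 40600907 counts and the Inha columns 6320539 to 11917167 counts over the genes kept. Of 5 germ cell markers, Ddx4 lay between 452 and 887 CPM over the Inhba animals, Dazl between 685 and 2102, Dppa3 between 155 and 1658, Pou5f1 between 69.8 and 139 and Nanos2 between 3.38 and 58.8 CPM. Sox9 of Sertoli cells lay at 0.253 to 7.97 CPM. In bulk RNA, fewer cells of a type and less RNA per cell cannot be told apart. The targeted Inhba gene does not check the genotypes, since gonocytes held only 1 to 27 counts of it in any animal, KO animals included.

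piRNAs are short RNAs that guide PIWI proteins to transposon transcripts in germ cells. In fetal male germ cells, when DNA methylation is low, the pathway silences transposons by cutting their RNA and by directing new methylation to their promoters. Tudor domains are pockets that bind methylated arginines, and the tails of PIWI proteins carry such arginines. Proteins with several Tudor domains thereby gather PIWI proteins, helicases and nucleases into nuage, the granules beside mitochondria where piRNAs are made.

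Promoter windows of 250 bases before to 50 bases after an annotated start were taken from RefSeq (GRCm38.p6), in which 7 of the 9 genes matched. Tdrd6 and Rnf17 were not matched. For a gene with several starts, the window nearest the start of the gene model was used. The letters CACGTG, an E-box that reads the same on both strands, stood in the windows of Tdrd1, Tdrd9 and Stk31, that is in 3 of 7 genes, and in 7.15% of 32851 windows of all genes. The windows of these 3 genes are printed because their transcripts include those with the 2 largest rises and the highest level, described next, with the E-box in capitals.
Tdrd9 (chr12:111971309-111971608, plus strand): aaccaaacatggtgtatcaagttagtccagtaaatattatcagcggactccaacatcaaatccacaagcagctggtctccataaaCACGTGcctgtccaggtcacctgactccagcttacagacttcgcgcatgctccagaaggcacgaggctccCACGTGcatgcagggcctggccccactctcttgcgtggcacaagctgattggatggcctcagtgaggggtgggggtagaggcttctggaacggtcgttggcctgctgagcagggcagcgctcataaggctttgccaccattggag
Tdrd1 (chr19:56825959-56826258, plus strand): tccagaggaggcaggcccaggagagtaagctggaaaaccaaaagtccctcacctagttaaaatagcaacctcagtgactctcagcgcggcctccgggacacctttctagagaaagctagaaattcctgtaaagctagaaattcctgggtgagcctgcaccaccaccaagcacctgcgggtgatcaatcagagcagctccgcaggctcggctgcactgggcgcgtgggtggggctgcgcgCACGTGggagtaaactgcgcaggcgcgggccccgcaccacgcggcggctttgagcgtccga
Stk31 (chr6:49395354-49395653, plus strand): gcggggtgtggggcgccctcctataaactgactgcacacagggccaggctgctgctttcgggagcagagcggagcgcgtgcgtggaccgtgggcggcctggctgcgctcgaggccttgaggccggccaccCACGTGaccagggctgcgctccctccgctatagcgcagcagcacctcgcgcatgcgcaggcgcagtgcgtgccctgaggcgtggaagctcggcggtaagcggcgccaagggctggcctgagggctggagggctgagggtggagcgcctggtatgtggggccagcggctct
The E-box began 165 and 95 bases before the start in Tdrd9, 11 bases before it in Tdrd1 and 120 bases before it in Stk31. Windows with 2 or more E-boxes, as in Tdrd9, made up 0.594% of all windows. The E-box was 1 of several motifs searched. The windows of Tdrd5, Tdrd7 and Tdrd12 held none, though these transcripts also rose, Tdrd7 by more than Stk31 (log2 fold changes 1.49 and 1.24 in WT). GGGCGG stood in 3 of 7 genes (35.7% of all windows), AACNGT in 3 (26.1%), GCGGGAA in 1 (4.6%) and TGACGTCA in none (1.79%). No link of a motif with a change was tested. A match of letters is a description and not a binding site.

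The window of Tdrkh, whose transcript changed least with age among the genes tested, is printed for comparison, with the NF-Y box (CCAAT on either strand, here ATTGG) in capitals.
Tdrkh (chr3:94412994-94413293, plus strand): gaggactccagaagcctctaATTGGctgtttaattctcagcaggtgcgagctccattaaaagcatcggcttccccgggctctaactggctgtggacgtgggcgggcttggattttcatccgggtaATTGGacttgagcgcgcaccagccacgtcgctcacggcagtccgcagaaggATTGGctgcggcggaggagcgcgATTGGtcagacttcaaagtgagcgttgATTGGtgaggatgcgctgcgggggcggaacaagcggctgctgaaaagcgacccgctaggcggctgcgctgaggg
It held 5 NF-Y boxes and no E-box. Of all windows 37.4% held an NF-Y box and 0.271% held 5 or more, and Tdrd9 was the other matched gene with this box. The number of CpG pairs ran from 4 in the window of Tdrd7 to 48 in that of Tdrd5, against a median of 7 over all windows. The value of Tdrd7 depends on the start, since the windows at its 2 other annotated starts each held 32. The SMAD palindrome GTCTAGAC, searched on both strands because activin signals through SMAD proteins, was in none of the 7 windows and in 0.213% of all windows. That says only that the letters of the palindrome are not in the windows read. The shorter SMAD element CAGAC, on either strand, was in the windows of Tdrd9 and Tdrkh. That is 2 of the 7 genes, against 49.6% of all windows.

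To compare levels between genes, CPM were divided by the length of each gene's exons in kb. In WT gonocytes at E13.5 the order was led by Stk31, a protein kinase with a Tudor domain found in germ cells, at 117 ± 6.76 CPM per kb (SD, n = 3). Rnf17, a Tudor protein with a RING finger that in mouse spermatocytes restrains secondary piRNA production, followed at 54.4 ± 3.99 and Tdrd5 at 31.2 ± 4.01 CPM per kb. Tdrd12, Tdrkh, Tdrd1 and Tdrd7 lay between 16.2 and 11.7 CPM per kb on average, and each overlapped its neighbour in the order. Tdrd9 came next at 1.40 ± 0.399 and Tdrd6 last at 0.158 ± 0.065 CPM per kb.

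At E15.5 the order in WT had changed. Stk31 still led at 322 ± 18.9 CPM per kb (SD, n = 4) and ranked 33 among 17880 protein-coding genes with counts. Tdrd1 was now second at 187 ± 16.7 followed by Tdrd9 at 130 ± 39.2 CPM per kb, overlapping each other, and Tdrd9 also overlapped Rnf17 at 105 ± 10.8 CPM per kb. Among protein-coding genes in WT, Tdrd9 ranked 9177 of 16726 at E13.5 and 149 of 17880 at E15.5, and Tdrd1 ranked 3265 and 80. The 9 transcripts together took 1182 to 1251 CPM in WT animals at E13.5, against 4258 to 4562 CPM at the later age. In KO animals the sum was 1116 to 1727 CPM at E13.5, against 3798 to 4587 CPM at E15.5.

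**Figure D1:**
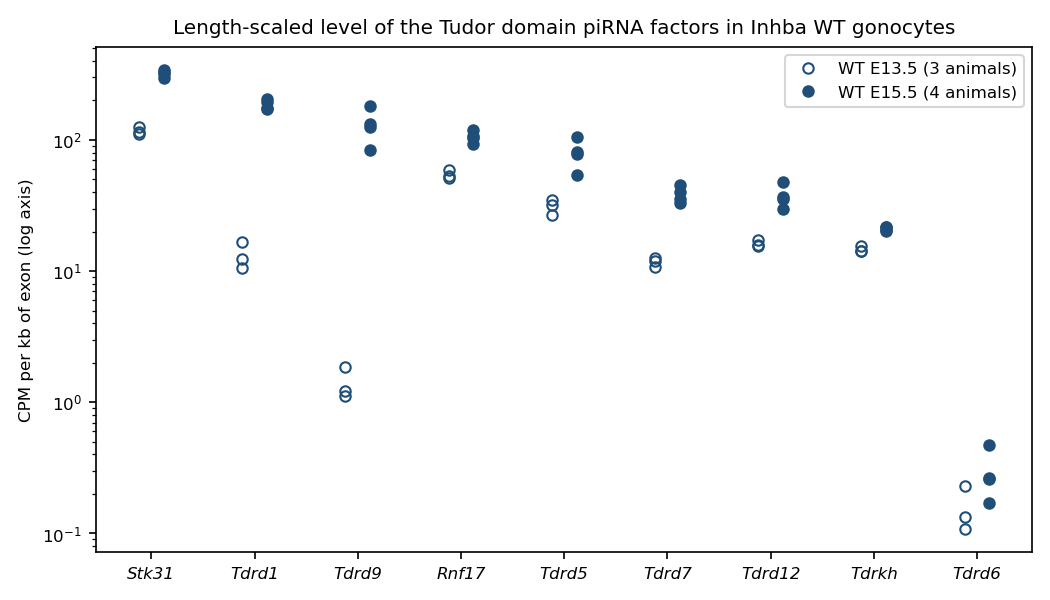
Level in CPM per kb of exon (log axis) of each gene in Inhba WT gonocytes, with a point per animal, open for the 3 animals at E13.5 and filled for the 4 at E15.5. Tdrd9 moved from 1.40 to 130 CPM per kb on average and Tdrd6 stayed below 0.5 CPM per kb in every animal.

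The comparison of ages asked how these transcripts changed while male germ cells differentiated. In WT gonocytes 7 of the 8 genes tested rose from E13.5 to E15.5 and none fell (Tdrd1, Tdrd5, Tdrd7, Tdrd9, Tdrd12, Stk31 and Rnf17). A gene was called changed at an adjusted p under 0.05 in edgeR's quasi-likelihood test, with Benjamini-Hochberg adjustment over all genes tested, and a change above 1.5-fold. Of all 15380 genes tested, 34% were called higher and 28.1% lower. The median log2 fold change of the 8 genes was 1.18 against 0.05 over all genes. In KO gonocytes the same 7 genes rose and none fell, where 29.1% of 14676 genes were called higher and 25.2% lower, and the medians were 1.31 and 0.02.

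In each of the 8 genes every E15.5 animal lay above every E13.5 animal in CPM, in WT and in KO gonocytes. The same held for 43.4% of genes tested in WT and 31.6% in KO. The exact two-sided permutation test on CPM gave p = 0.0571 for each of the 8 in WT and p = 0.0286 in KO, the smallest that these numbers of animals allow.

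Tdrd9 encodes a helicase with a Tudor domain that works with the PIWI protein MIWI2 in fetal gonocytes and is required to silence LINE-1 elements (ENSMUSG00000054003, chromosome 12 of GRCm38 from 111971559 to 112068854). WT gonocytes held 10.1, 6.66 and 6.05 CPM of it at E13.5, from 115 to 199 counts, then 456, 712, 974 and 681 CPM at E15.5. KO animals had 2.82, 4.06, 14.5 and 4.36 CPM at E13.5, then 519, 639, 488 and 251 CPM at E15.5. The highest E13.5 animal was thus far below the lowest E15.5 animal in both genotypes. On the log2 scale it rose by 6.31 (SE 0.516, adjusted p = 9.8e-08) in WT and 6.14 (SE 0.458, adjusted p = 6.8e-08) in KO. Without KO replicate 3 at E13.5 the value in KO was 6.83, a fold more than 1.5 times larger, and leaving out each animal in turn gave 5.89 to 6.83. Of all genes tested, 98.0% in WT and 99.2% in KO had a lower log2 fold change.

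Tdrd1 encodes a scaffold with several Tudor domains that binds the PIWI protein MILI in nuage (ENSMUSG00000025081, chromosome 19 of GRCm38 from 56826209 to 56870012). WT animals had 90.4, 57.0 and 67.3 CPM at E13.5, then 931, 1064, 960 and 1126 CPM at E15.5. KO animals had 43.8, 78.1, 155 and 72.7 CPM at E13.5, then 1081, 1012, 899 and 603 CPM at E15.5. KO replicate 3 was the highest of its group at E13.5 and KO replicate 4 the lowest at E15.5, as for Tdrd9. On the log2 scale Tdrd1 rose by 3.61 (SE 0.321, adjusted p = 1.9e-07) in WT and 3.29 (SE 0.284, adjusted p = 1.8e-07) in KO.

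Tdrd12, a Tudor protein with a helicase domain required in mice for piRNAs loaded on MIWI2, rose from 70.3 ± 3.66 to 162 ± 32.3 CPM in WT (SD, n = 3 and 4) and from 85.2 ± 21.3 to 188 ± 20.5 CPM in KO (n = 4 and 4). Its log2 fold changes were 0.98 (SE 0.177) and 1.06 (SE 0.157). Tdrkh, an outer mitochondrial membrane protein with KH and Tudor domains that is needed for trimming piRNA precursors, went from 90.5 ± 4.93 to 129 ± 5.10 CPM in WT and from 85.8 ± 7.60 to 125 ± 7.35 CPM in KO. Its log2 fold changes, 0.29 (SE 0.0899, adjusted p = 0.0088) in WT and 0.45 (SE 0.0814, adjusted p = 1.7e-04) in KO, passed the test on p but not the 1.5-fold limit. With that limit dropped, 8 of 8 genes passed in both genotypes. Without a filter on low counts its log2 fold change in WT was 0.17 and did not pass (adjusted p = 0.189).

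Tdrkh carries a limit of the counting. Its exons share 2255 bases with those of Oaz3 on the opposite strand, which is 36.7% of its exon bases, and the use of strand in counting is not stated. Oaz3 itself had 418 counts over the 15 Inhba animals against 35633 for Tdrkh. The exons of Tdrd5 share 176 bases with the antisense gene 4930518J20Rik, which had 187 counts against 150750. Reads from such shared stretches cannot be assigned with certainty.

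The proteins of the granules that gather in later germ cells followed. Tdrd5 and Tdrd7 carry LOTUS and Tudor domains and shape the chromatoid body of spermatids in mice. Tdrd7 rose from 46.4 ± 3.83 to 152 ± 21.3 CPM in WT and from 47.5 ± 9.56 to 143 ± 33.6 CPM in KO, with log2 fold changes of 1.49 (SE 0.174) and 1.49 (SE 0.162). Tdrd5 had 187, 221 and 242 CPM in WT at E13.5, then 726, 558, 372 and 546 CPM at E15.5, which on the log2 scale was a rise of 1.13 (SE 0.241, adjusted p = 6.0e-04). In KO animals it had 169, 247, 420 and 218 CPM at E13.5, then 738, 636, 660 and 752 CPM at E15.5, which was a rise of 1.33 (SE 0.219, adjusted p = 7.0e-05). The KO animal at 420 CPM was replicate 3 again, and it stood above the lowest WT animal at E15.5, replicate 3 of that group.

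At E15.5 Stk31 varied least between animals among the 7 genes that rose. It had 380 ± 21.9 CPM at the earlier age and 1043 ± 61.3 CPM at the later in WT, and 404 ± 56.0 and 1048 ± 30.4 CPM in KO, with coefficients of variation of 5.87% and 2.90% at E15.5. Its log2 fold changes were 1.24 (SE 0.0974, adjusted p = 7.5e-08) and 1.28 (SE 0.0863, adjusted p = 3.4e-08). Rnf17 rose from 339 ± 24.9 to 656 ± 67.7 CPM in WT and from 365 ± 24.5 to 661 ± 67.2 CPM in KO. Its log2 fold changes of 0.73 (SE 0.110) and 0.76 (SE 0.0989) were the smallest above the 1.5-fold limit.

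Tdrd6, which in mice acts in the chromatoid body of spermatids, was at the edge of detection. Its 15 Inhba animals held 4 to 71 counts, or 0.221 to 3.32 CPM, and the ages overlapped in both genotypes. Mean levels were 1.11 ± 0.459 CPM in WT at E13.5, then 2.06 ± 0.894 CPM at E15.5. Only 1 animal passed the detection limit in each of the WT and KO age comparisons, so that it was not tested there. Without a filter on low counts the estimate with age, as log2 fold change, was 0.52 (SE 0.504, adjusted p = 0.388) in WT and 0.56 (SE 0.468, adjusted p = 0.336) in KO.

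**Figure D2:**
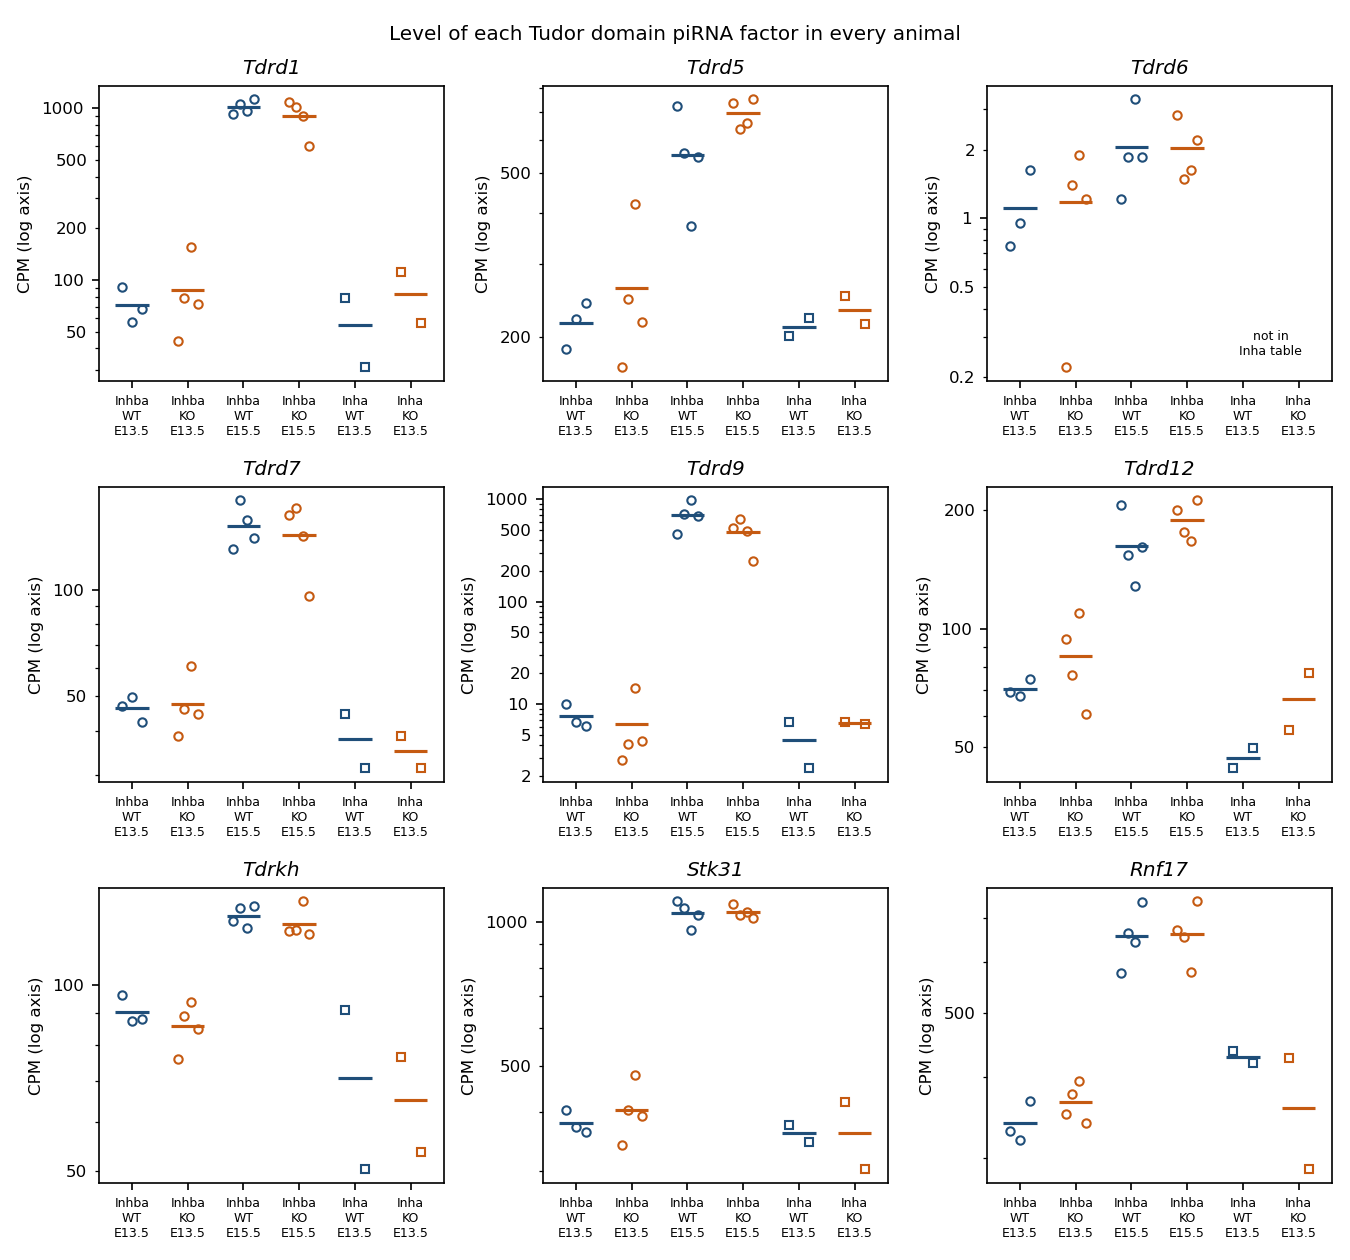
CPM of each gene in every animal (log axis, scaled per panel), with Inhba animals as circles, Inha animals as squares, WT in blue, KO in orange and horizontal lines at group means. Within each genotype all E15.5 animals lie above all E13.5 Inhba animals for every gene other than Tdrd6, while Inhba WT and KO animals of an age overlap.

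The scaling between libraries moves these sizes but not the calls. With library totals alone, an alternative added after the data were seen, the median log2 fold change of all genes was 0.27 in WT and 0.11 in KO in place of 0.05 and 0.02. The log2 fold changes then ran from 0.51 for Tdrkh to 6.54 for Tdrd9 in WT, and 7 genes were called in each genotype.

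Markers of other cell types also moved with age in WT. The sum of 6 mesenchyme markers was 2.74 to 10.9 CPM at E13.5, then 41.6 to 66.2 CPM at E15.5, with 6 of 6 higher on average. The sums rose without overlap for 5 Leydig cell markers (2.59 to 5.21 against 7.93 to 14.2 CPM, 5 of 5 higher), 5 macrophage markers (2.83 to 3.26 against 9.54 to 19.6 CPM, 5 of 5 higher), 6 Sertoli cell markers (2.07 to 11.04 against 11.2 to 20.2 CPM, 4 of 6 higher) and 6 erythroid markers (3.01 to 3.89 against 6.29 to 7.76 CPM, 5 of 6 higher). Hba-a1 was at 0 in all WT animals, and Hba-a2, Hbb-bt, Insl3 and Adgre1 in those at E13.5. The sum of 5 endothelial markers was 103 to 151 CPM at E13.5, then 45.4 to 85.9 CPM at E15.5, although 4 of 5 markers were higher on average at E15.5. Over the Inhba animals Pecam1 spanned 16.2 to 153 CPM and none of the others passed 31.05 CPM, so that Pecam1 carried the fall of this sum. The sum thus follows Pecam1 and not the set, and is not read here as a level of endothelial cells. In KO animals the sums for Leydig cells (8.06 to 11.8 against 5.71 to 22.6 CPM), mesenchyme (14.0 to 26.9 against 17.7 to 61.5 CPM), Sertoli cells (4.29 to 33.3 against 4.59 to 15.3 CPM) and erythroid cells (6.70 to 11.96 against 3.98 to 8.33 CPM) overlapped between ages. Those for macrophages (3.89 to 5.70 against 6.65 to 9.80 CPM, 3 of 5 higher) did not overlap. Nor did those for endothelium (89.97 to 161 against 45.9 to 72.3 CPM), although 4 of 5 markers were higher on average at E15.5. The sums for germ cells (3773 to 4449 against 2292 to 3461 CPM, 2 of 5 higher) did not overlap either. The 5 germ cell markers summed to 3796 to 4195 CPM at E13.5, then 1625 to 3003 CPM at E15.5 in WT. Of these 5 markers, 2 were higher on average at E15.5 in WT, among them Ddx4 (822.5 against 517.4 CPM). The part of these differences in the results was not tested.

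**Figure D3:**
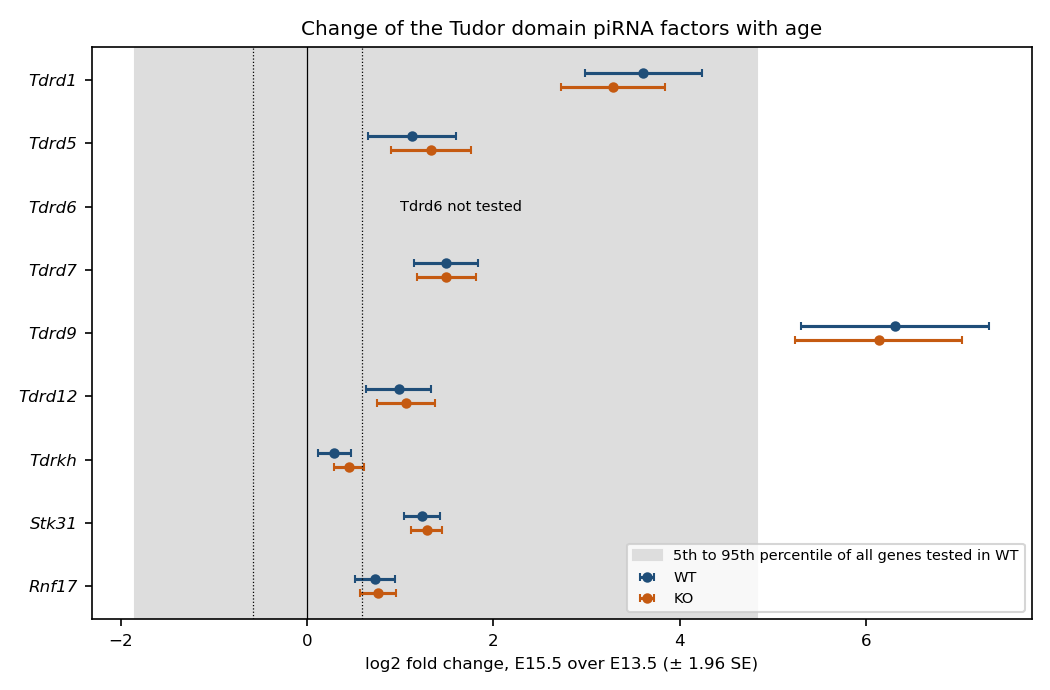
Log2 fold change from E13.5 to E15.5 with bars for 95% intervals for each gene in Inhba WT (blue) and KO (orange). The dotted lines mark 1.5-fold, and the grey band holds the 5th to 95th percentile of all genes tested in WT, from -1.85 to 4.83, which Tdrd9 exceeded.

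Partners of these proteins were followed in lists of fixed membership. All 3 PIWI genes rose in both genotypes, with a median log2 fold change of 3.05 in WT. Piwil4, which encodes MIWI2, the partner of TDRD9, went from 9.42 ± 0.951 to 477 ± 93.9 CPM in WT (log2 fold change 5.43, SE 0.468, adjusted p = 1.5e-07). Piwil2, which encodes MILI, the partner of TDRD1, went from 147 ± 10.5 to 809 ± 95.7 CPM (log2 fold change 2.23), and Piwil1 from 4.98 ± 0.785 to 48.4 ± 15.7 CPM.

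Of 17 genes for piRNA production and nuage, 14 rose and none fell in WT, and 14 rose and 1 fell in KO, with medians of 1.73 and 1.74. The smallest p in WT belonged to Mov10l1, the helicase that feeds precursors into piRNA production (2.10), Tex15 (3.02) and Morc1 (4.17), both needed to silence transposons in mouse male germ cells, and Mael (2.92), which encodes a nuage protein. Mybl1, a transcription factor that drives piRNA precursor genes in mouse meiosis, was the gene that fell in KO (log2 fold change -0.60, adjusted p = 0.00726), a call lost with DESeq2 size factors or library totals alone, and in WT it was at -0.42 (adjusted p = 0.0571).

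At the DNA methylation end of the pathway 3 of 5 genes rose and 2 fell in each genotype. The de novo enzyme Dnmt3a rose (log2 fold change 2.92 in WT), as did Dnmt3b (0.98) and their cofactor Dnmt3l (6.88), which went from 0.825 ± 0.424 to 115 ± 50.6 CPM in WT. The maintenance enzyme Dnmt1 (-1.42) and its partner Uhrf1 (-1.57) fell.

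Of 7 listed genes for enzymes that write arginine methylation, the mark read by Tudor domains, and for their partners none rose, and 4 fell in WT and 3 in KO, with medians of -0.63 and -0.53. Prmt5, the enzyme that makes symmetric dimethylarginine, had a log2 fold change of -0.63 (adjusted p = 3.0e-05) in WT and of -0.53 (adjusted p = 8.2e-05) in KO, where it missed the 1.5-fold limit. Its partners Wdr77 (-1.48) and Clns1a (-1.53) and the enzyme Prmt1 (-0.996) fell in WT and in KO. With library totals alone 3 fell in WT and 2 in KO, and the calls of Prmt5 in WT and Prmt1 in KO were lost. Prmt7, Coprs and Riok1 were not called, with log2 fold changes of -0.21, 0.18 and 0.31 in WT.

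Tudor domain genes with other tasks were counted in the same way. Of 20 tested in WT 1 rose and 7 fell, with a median of -0.14, and in KO 2 rose and 6 fell, with a median of -0.02. Akap1, an anchor protein of mitochondria (-1.73), Lbr of the nuclear envelope (-1.54), Smn1 of snRNP assembly (-1.45) and the Polycomb partner Phf19 (-1.83) fell in WT, and Phf1 rose (1.44). In KO the genes that rose were Phf1 (1.07) and the histone demethylase gene Kdm4b (0.64). With library totals alone the medians changed sign, to 0.08 in WT and 0.0786 in KO. No test compared this list with the piRNA factors.

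The comparison of Inhba KO with WT asked whether loss of activin A altered these transcripts. No gene of the 8 tested at E13.5 was called, and none had an unadjusted p under 0.05, where 0% of 12739 genes were called and 257 had an unadjusted p under 0.05 in edgeR. DESeq2 and limma-voom also called 0 of the 8, and 8 and 1 of all genes. The exact permutation p ran from 0.229 for Rnf17 to 0.971 for Tdrd7 over the 9 genes. The 95% intervals, by the normal approximation, all held 0, and for 5 genes (Tdrd7, Tdrd12, Tdrkh, Stk31 and Rnf17) they lay within 1.5-fold in either direction. That of Tdrd12 did so only just, with an upper end of 0.576 against a limit of 0.585 on the log2 scale. For Tdrd9 the interval ran from -1.18 to 0.63 and for Tdrd1 from -0.32 to 0.84, which leaves room for changes above 1.5-fold. Leaving out KO replicate 3 turned the log2 fold change of Tdrd1 from 0.26 to -0.11 and took that of Tdrd9 from -0.27 to -0.98, with 0 genes called.

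At E13.5 the marker sums of other cell types lay higher in KO without overlap for mesenchyme (14.0 to 26.9 against 2.74 to 10.9 CPM, 6 of 6 markers higher), Leydig cells (8.06 to 11.8 against 2.59 to 5.21 CPM, 5 of 5), macrophages (3.89 to 5.70 against 2.83 to 3.26 CPM, 5 of 5) and erythroid cells (6.70 to 11.96 against 3.01 to 3.89 CPM, 5 of 6). Insl3, Adgre1, Hba-a1, Hba-a2 and Hbb-bt were at 0 in all WT animals of this age. At E15.5 the marker sums of every listed cell type overlapped between KO and WT. Higher on average in KO were 5 of 5 germ cell, 3 of 5 Leydig, 4 of 6 erythroid and 2 of 6 mesenchyme markers. So were 2 of 5 endothelial, 1 of 6 Sertoli and 0 of 5 macrophage markers. The part of these markers in the results at either age was not tested.

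At E15.5 none of 9 genes was called, and none had an unadjusted p under 0.05 in edgeR, where 0.00658% of 15209 genes were called, which was 1 gene, and 1590 had an unadjusted p under 0.05. DESeq2 and limma-voom called 0 of the 9. The KO animals had 251 to 639 CPM of Tdrd9 and the WT animals 456 to 974 CPM, with means of 475 ± 162 and 706 ± 212 CPM (SD, n = 4 and 4). The groups overlapped, with KO replicate 4 lowest and WT replicate 3 highest. Its log2 fold change was -0.52 (SE 0.352, unadjusted p = 0.16, adjusted p = 0.552 in edgeR), from -0.68 to -0.32 when each animal was left out in turn, and the exact permutation p was 0.143.

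Tdrd5 had 636 to 752 CPM in KO and 372 to 726 CPM in WT at E15.5, with a log2 fold change of 0.40 (SE 0.217, unadjusted p = 0.0845, adjusted p = 0.493 in edgeR) and an exact permutation p of 0.0857. These groups overlapped in WT replicate 1 alone. Tdrd12 was at 0.28 (SE 0.160, adjusted p = 0.504) and Tdrd1 at -0.13 (SE 0.254, adjusted p = 0.843). The intervals of Tdrd7, Tdrkh, Stk31 and Rnf17 lay within 1.5-fold. Stk31 had means of 1048 CPM in KO and 1043 CPM in WT, and its interval ran from -0.10 to 0.24.

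The change with age was compared directly between genotypes by the interaction of genotype with age. None of 9 genes was called or had an unadjusted p under 0.05 in edgeR, DESeq2 and limma-voom called 0, and 0% of 15841 genes were called, with 966 at an unadjusted p under 0.05. The estimates ran from -0.37 (SE 0.380) for Tdrd1 to 0.16 (SE 0.318) for Tdrd5. That of Tdrd9 was -0.22 (SE 0.560) and became 0.48 without KO replicate 3 at E13.5, so that its sign rested on this animal. For Tdrd7, Tdrd12, Tdrkh, Stk31 and Rnf17 the interval lay within 1.5-fold.

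In Inha KO gonocytes, from testes without inhibins, none of 8 genes was called, where 0.357% of 9798 genes were called in edgeR with the littermate pair as a block. DESeq2 and limma-voom called 0 of the 8, and 2 genes had an unadjusted p under 0.05 in edgeR against 913 of all genes. Tdrd1 had 111 CPM in KO against 78.7 CPM in WT in pair 1 and 56.2 against 31.0 CPM in pair 2. Its log2 fold change was 0.58 (SE 0.238, unadjusted p = 0.0153, adjusted p = 0.377). Both KO animals were above their WT littermates, but the KO animal of pair 2 was below the WT animal of pair 1, so that the groups overlapped.

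Rnf17 had 427 CPM in KO against 439 CPM in WT in pair 1 and 289 against 420 CPM in pair 2, which made -0.38 on the log2 scale (SE 0.161, unadjusted p = 0.0187, adjusted p = 0.406). Tdrd9 had 6.71 against 6.61 CPM in pair 1 and 6.33 against 2.35 CPM in pair 2, from 20 to 80 counts, and its interval was the widest, from -1.002 to 2.20. Tdrd12 was higher in KO in both pairs (55.2 against 44.2 and 77.4 against 49.7 CPM) with a log2 difference of 0.39 (SE 0.260, adjusted p = 0.688). In log2 CPM after TMM scaling between libraries, both pairs moved the same way for Tdrd1, Tdrd7, Tdrd12, Tdrkh and Rnf17. They moved opposite ways for Tdrd5, Tdrd9 and Stk31. Some of these differences were small, at -0.013 for Tdrd9 in pair 1 and -0.055 for Tdrkh in pair 2. In CPM without TMM, KO was above WT in both of these cases (for Tdrkh 53.8 against 50.4 CPM). With 2 animals a group an exact permutation test cannot pass the threshold and was not run. The intervals of Tdrd5 and Stk31, by the normal approximation, lay within 1.5-fold, although their pairs moved opposite ways. With 2 pairs the spread of a single gene is poorly known, so these intervals are weak bounds. The unadjusted p-values of Tdrd1 and Rnf17 share this limit, and the pairs of Rnf17 differed widely, at -0.075 and -0.689.

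**Figure D4:**
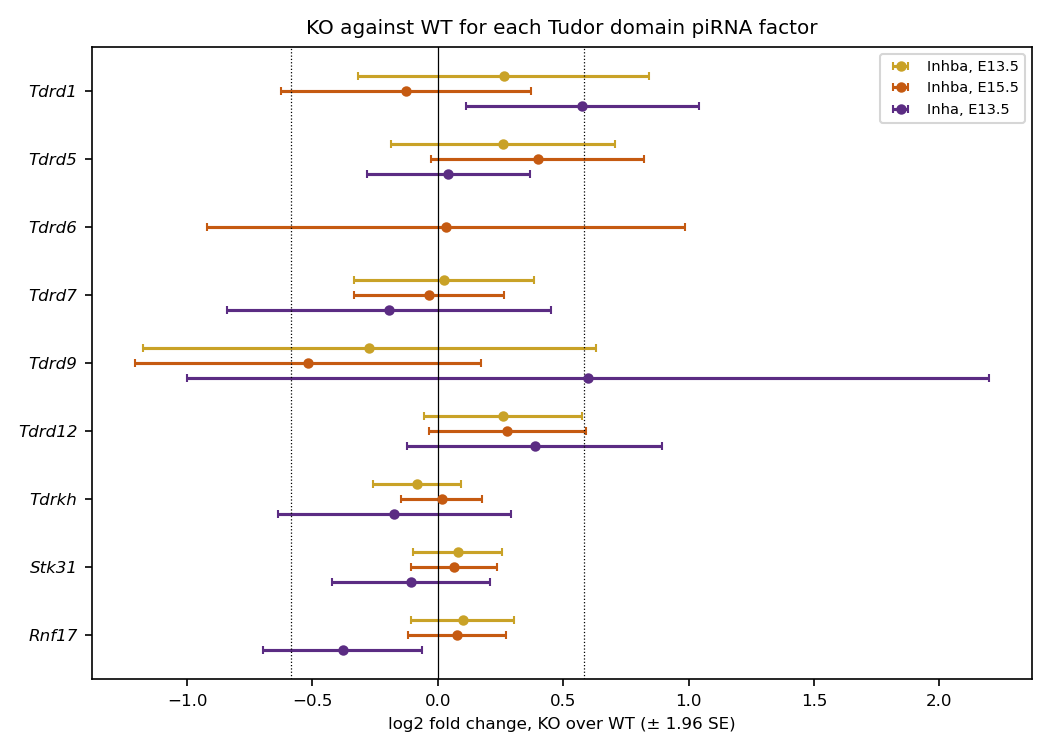
Log2 fold change of KO over WT with bars for 95% intervals for each gene, in Inhba animals at E13.5 (yellow) and E15.5 (orange) and in Inha animals at E13.5 (purple), with dotted lines at 1.5-fold. Tdrd6 was tested at E15.5 alone, and the bars of Tdrd1 and Rnf17 in Inha animals miss 0 before adjustment over all genes. The Inha bars rest mainly on a spread shared over genes.

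Over the 15 Inhba animals the log2 CPM of the genes moved together, as the ages differ. Of 36 pairs, 27 had a Pearson r above 0.8, and the highest was 0.991 for Tdrd1 with Tdrd9. The lowest was 0.356 for Tdrd6 with Tdrd12, and Tdrd6 has few counts. Centring each group on its own mean left a median r of 0.292 over the 36 pairs, with 10 below 0. Tdrd1 with Tdrd9 remained highest at 0.869, followed by Tdrd7 with Tdrd9 at 0.773 and Tdrd5 with Stk31 at 0.770. KO replicate 3 at E13.5 was the highest of its group for each of Tdrd1, Tdrd5, Tdrd7, Tdrd9 and Stk31. Values of r without this animal were not computed. Tdrd12 with Tdrd7 was at -0.338 and Rnf17 with Tdrd7 at -0.349. All points of a pair share a library and its depth, and the values are given as a description.

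**Figure D5:**
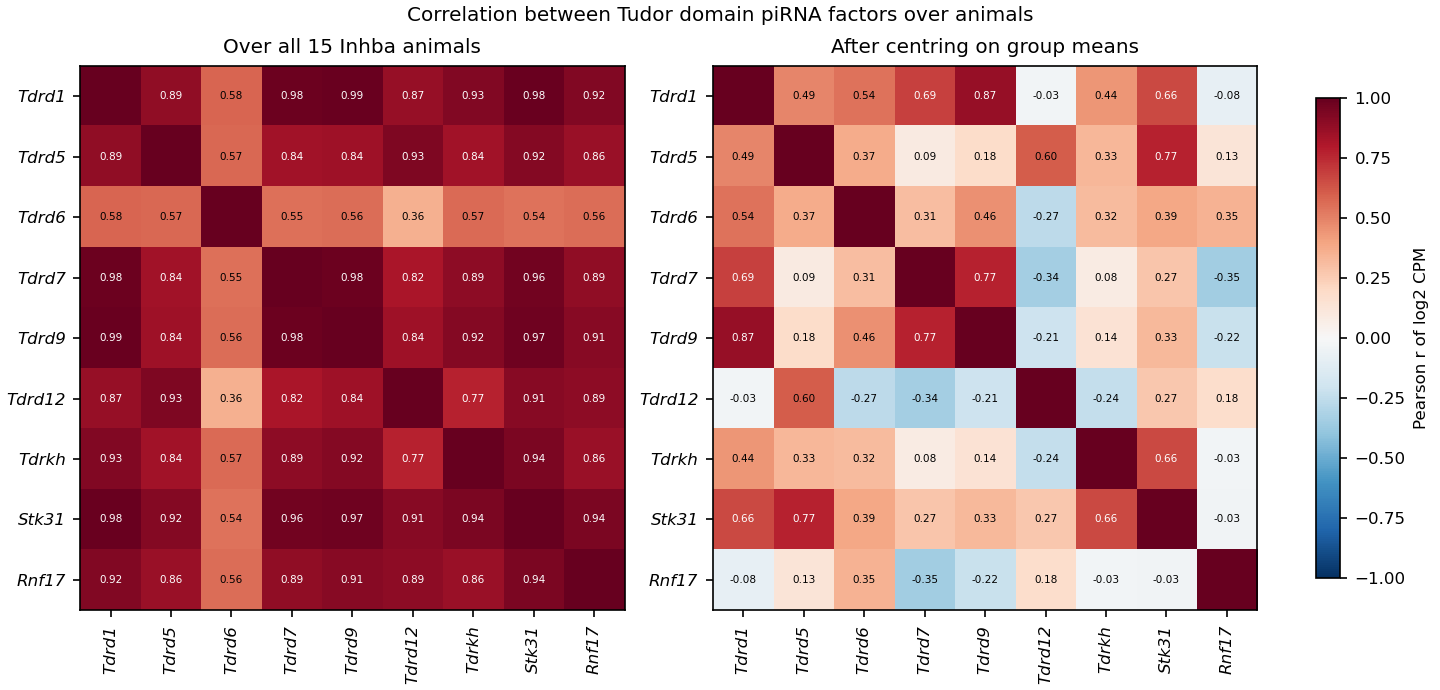
Pearson r of log2 CPM between each pair of genes over the 15 Inhba animals (left) and after each of the 4 groups was centred on its mean (right), with red for positive and blue for negative values. Tdrd1 and Tdrd9 have the highest r in both panels, 0.991 and 0.869.

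Among 13319 other protein-coding genes, those most alike over the 15 animals by Pearson r were found for each gene. They were Mat1a (0.997), Prpf40b (0.996) and 2210010C04Rik (0.996) for Tdrd9, and Clip3 (0.997), Prmt2 (0.996) and Ndrg4 (0.995) for Tdrd1. Mat1a, an enzyme that makes S-adenosylmethionine, went from 0.363 to 22.9 CPM in WT, and Prmt2, an arginine methyltransferase gene that is not in the list above, from 2.23 to 49.0 CPM. For Tdrd7 they were Acaa2 (0.995), Vps53 and Fyco1 (both 0.993), and for Stk31 they included Rbm18 (0.991) and Txndc16 (0.990). Il13ra1 (0.985), Bnc2 (0.984) and Edc3 (0.980) were most like Tdrd5. Plat (0.966), Ccng2 and Vwa5a (both 0.963) were most like Tdrd12, Vps26b (0.961), Fam132a (0.955) and Layn (0.950) most like Tdrkh, and F8 (0.956), Fyttd1 and Acot9 (both 0.953) most like Rnf17. For Tdrd6 the highest values were 0.861 for Armc6, 0.837 for Lipa and 0.836 for Frmpd3. The age difference that many genes share carries these values, so they are a description of 4 groups of animals.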

How the data were processed

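RNA of FACS-sorted gonocytes was analysed from deposited raw counts of reads in each gene. The authors aligned to GRCm38 by STAR 2.5.2b, and their counter was featureCounts (Subread 1.5.2). The Inhba tables held all genes. The Inha table had been filtered by the authors, so its totals are those of the genes kept. Each animal has 2 sample records and a single column, and how they were combined is not stated. The libraries were amplified before sequencing.

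CPM were computed over all genes of a table, and 3 counts equal 0.0739 to 0.354 CPM in Inhba and 0.252 to 0.475 CPM in Inha animals. The test was edgeR 4.0.16 (quasi-likelihood, robust, TMM, R 4.3.3), with a mean per group over all 15 Inhba animals. Genes above the study's detection limit for gonocytes, a little over 2 CPM, in 2 or more of the animals compared entered the test. The 2 Inhba tables, of the same genes, entered a single fit, so age is also table. The Inha table had its own fit, in which littermate pair was a block and a gene needed 2 CPM in 2 animals. The pairing comes from the labels, and deviations of littermates from group means had a Pearson r of 0.256. SE was the log2 fold change over the root of F. Log2 CPM used TMM and a prior count of 2. Code was tested on simulated data. Alternatives were DESeq2 size factors, library totals alone, no filter on low counts, DESeq2 1.42.0, limma-voom (limma 3.58.1), no fold limit, only the animals compared, no block, and each animal left out. Permutation tests used scipy.

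The 9 genes, the lists and the tests were chosen with earlier results of these data known. All 9 are named in each comparison, with up to 4 genes a list by smallest p in the WT age comparison, any called in a genotype comparison, the 3 most alike genes (1 of which is not reported here), and Piwil1, Dnmt3b, Mybl1, Phf1, Kdm4b, Prmt7, Coprs and Riok1, chosen after their values were seen. Litters of the Inhba animals are not stated and were not modelled, and p-values of the Inhba comparisons measure the spread between these animals. In the Inha fit, genes with many counts had nearly the same SE (0.1609 for Stk31, 0.161 for Ddx4 and 0.1608 for Dnmt1). Its p-values therefore rest mainly on a spread shared over genes and not on each gene's own pairs.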

Additional observations from a re-analysis of the deposited data

Results flagged for a closer look

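In 27 sets of 4 animals, 9 genes in each of 3 Inhba groups, 2 held an animal far from the other 3, where chance gives about 1 in 20. Tdrd9 was at 14.47 CPM in KO replicate 3 at E13.5, the highest of its group, and the gap to the next animal was 0.868 of the range. Tdrkh was at 136.2 CPM in KO replicate 3 at E15.5, the highest of its group, with a gap of 0.89 of the range.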

How the results depend on the processing

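All 86 alternative counts of called genes lay within 1.5 times the count reported. They were 7 with age in WT and in KO when each animal was left out, 8 in both with no fold limit, and 0 in each Inhba comparison of genotypes. Of the alternative log2 fold changes, 56 were counted as changed in sign, all of uncalled genes, and 646 as the same. For Inha values with 1 animal left out, the same meant near the main value, and sign was not checked. There Tdrd5 ran from -0.203 to 0.285, Stk31 from -0.341 to 0.127 and Tdrd9 from -0.013 to 1.21. The others of the 646 kept their direction and side of the threshold. With no filter on low counts, Tdrd7 at E15.5 was at 0.009913, and in the interaction Tdrd6 was at 0.0429, Tdrd7 at 0.00384 and Rnf17 at 0.04512. In the interaction limma-voom put Tdrd6 at 0.19, DESeq2 size factors put Stk31 at -0.01252 and DESeq2 at -0.01277. With library totals alone, chosen after seeing the data, Tdrd6 was at -0.0363 and Tdrkh at -0.04482 at E15.5, and Tdrd12 at -0.06106 and Stk31 at -0.08231 in the interaction. Leaving out each animal in turn at E13.5 gave -0.105 to 0.48 for Tdrd1, -0.00111 to 0.42 for Tdrd5 and -0.0714 to 0.107 for Tdrd7. At E15.5 it gave -0.23 to 0.00736 for Tdrd1, -0.16 to 0.18 for Tdrd6, -0.122 to 0.0988 for Tdrd7, -0.0179 to 0.0376 for Tdrkh and -0.00859 to 0.15 for Rnf17. In the interaction it gave -0.40 to 0.25 for Tdrd6, -0.128 to 0.0952 for Tdrd7, -0.47 to 0.48 for Tdrd9, -0.0895 to 0.181 for Tdrd12, -0.0589 to 0.0487 for Stk31 and -0.088 to 0.0444 for Rnf17. The cause was not tested. Without the littermate pair as a block, 0 Inha genes of the 8 were called and Tdrd1 was at 0.54. With 1 Inha animal left out no residual degrees of freedom remained, so that within-pair values carry no test. Low counts limit Tdrd6 in all animals and Tdrd9 at E13.5.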
